A study of Mus musculus with 48 samples.

Results

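The genes described here are 37 genes of fatty acid oxidation and ketone body metabolism, named by their symbols and read in 6 tissues of mice 9 days after Roux-en-Y gastric bypass (RYGB) or sham surgery. They were chosen by name, with earlier results of these data known, and the tables of the 6 tissues together listed 15541 genes. A table lists only genes that passed the authors' filter on low values, and 28 of the 37 genes were listed in every tissue. The liver listed 35 of them (all but Ucp3 and Cpt1b), white adipose tissue (WAT) 33 (all but Cpt1b, Slc27a2, Cyp4a14 and Cyp4a10) and muscle 30 (all but Vnn1, Cyp4a14, Cyp4a10, Acot1, Slc27a2, Creb3l3 and Acaa1b). Each segment of the small intestine listed 35 (all but Ucp3 and Cyp4a14), and every listed gene entered the test of its tissue.

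All mice were male C57Bl6 mice with diet-induced obesity from a high fat diet, and all were fasted before they were killed at 10 in the morning. In RYGB a small pouch of the stomach is joined to the jejunum, and ingested food no longer passes the remaining stomach or the duodenum, while the sham group had surgery without this rerouting. Both groups received a liquid elemental diet for the 9 days, and the labels also mention a return to the high fat diet without saying whether it came before day 9. Liver, subcutaneous WAT and gastrocnemius muscle had 4 RYGB and 4 sham libraries each, scraped villi had 3 and 4 for the duodenum, 3 and 4 for the jejunum, and 5 and 5 for the ileum, for a total of 48 libraries. The labels state neither whether the sham mice were weight-matched, nor which limb the jejunum came from, nor whether tissues with the same number came from the same mouse. Replicates were not said to be separate mice, so the p-values measure the spread between these libraries.

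Before a fatty acid is burned it is bound to coenzyme A by an acyl-CoA synthetase, handed to carnitine by the CPT enzymes, carried into the mitochondrion and shortened step by step by the acyl-CoA dehydrogenases and the trifunctional protein. Very long chains are first shortened in peroxisomes, and CYP4A enzymes hydroxylate the omega end. In fasting the liver turns the resulting acetyl-CoA into ketone bodies, which other tissues take up and oxidize through the enzyme encoded by Oxct1. Many of these genes are activated by the nuclear receptor PPARα when fatty acids are abundant in the cell.

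Values are CPM (each library's counts scaled to a common total) as deposited, means are given with SD, and fold changes come from log2(CPM + 1) in RYGB against sham, a scale that understates changes of low genes. A gene was called higher or lower when the adjusted p from limma was under 0.05 and the fold change was at least 1.5. The columns summed to between 925122 and 998777 CPM, and the depth of the libraries is unknown. CPM does not correct for the length of a gene, so levels are compared between samples and not between genes. These are bulk samples, in which fewer cells of a type and less RNA per cell cannot be told apart. The defining markers of the labelled tissue were listed in each, with all 6 hepatocyte genes in liver, all 6 adipocyte genes in WAT, all 6 skeletal muscle genes in muscle and all 6 enterocyte genes in the 3 gut segments. The exception was the ileum, where the ileal genes Fabp6 and Slc10a2 were low, with a summed level of 1.7 to 101.1 CPM in RYGB and 0.2 to 25.4 CPM in sham, and Fabp6 was listed at 0 in 2 of 10 libraries.

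Some of these genes share stretches of sequence with transcripts of another gene name, and reads from the shared stretches could be split between genes or lost in counting. Whether the other name stands for a separate copy was not checked. In the GENCODE M21 transcripts, 80.4% of the 50-base windows of Cpt1b were also found in Gm44502, 57.7% of those of Etfb in Gm45233, 56.6% of those of Hadhb in Gm13910 and 35.6% of those of Acaa1b in Acaa1a. For Cyp4a10 the shared part was 29.8%, for Acot1 32.7% and for Acot2 27.7%, with Acot1 and Acot2 sharing most of it with each other. Values of these 7 genes are therefore uncertain. Hadha and Hadhb, which encode the α and β subunits of the trifunctional protein, start 86 bases apart on opposite strands of chromosome 5.

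The sequences before the starts of 5 genes are printed because these genes carried the results of the ileum and the jejunum. Cpt1a (carnitine palmitoyltransferase of the outer mitochondrial membrane) and Slc25a20 (the carnitine-acylcarnitine carrier) were higher in the ileum, Pdk4 (a kinase that shuts off pyruvate dehydrogenase) and Slc27a2 (a fatty acid transport protein and very-long-chain acyl-CoA synthetase) were lower in the jejunum, and Oxct1 was higher there. The sequences are the 250 bases before the RefSeq start in GRCm38.p6, 5′ to 3′ on the strand of the gene, and capitals mark the hexamer AGGTCA or its complement TGACCT, the core that nuclear receptors such as PPARα bind. They lie at chr19:3323051-3323300 (plus strand), chr9:108661886-108662135 (plus strand), chr6:5496279-5496528 (minus strand), chr2:126552774-126553023 (plus strand) and chr15:4026178-4026427 (plus strand).
Cpt1a: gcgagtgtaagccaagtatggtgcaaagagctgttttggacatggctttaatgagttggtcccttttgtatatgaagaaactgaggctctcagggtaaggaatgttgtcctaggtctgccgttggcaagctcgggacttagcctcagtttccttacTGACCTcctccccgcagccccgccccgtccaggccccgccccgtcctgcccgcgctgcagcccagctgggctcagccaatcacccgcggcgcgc
Slc25a20: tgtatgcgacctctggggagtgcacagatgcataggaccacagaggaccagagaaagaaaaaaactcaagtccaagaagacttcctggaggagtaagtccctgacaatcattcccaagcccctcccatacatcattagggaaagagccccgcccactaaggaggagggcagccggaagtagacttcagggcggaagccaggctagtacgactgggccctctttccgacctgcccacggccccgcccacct
Pdk4: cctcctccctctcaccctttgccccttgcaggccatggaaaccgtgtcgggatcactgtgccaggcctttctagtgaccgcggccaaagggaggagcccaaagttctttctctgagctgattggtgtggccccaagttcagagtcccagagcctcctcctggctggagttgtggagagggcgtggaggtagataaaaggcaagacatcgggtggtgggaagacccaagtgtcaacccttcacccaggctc
Slc27a2: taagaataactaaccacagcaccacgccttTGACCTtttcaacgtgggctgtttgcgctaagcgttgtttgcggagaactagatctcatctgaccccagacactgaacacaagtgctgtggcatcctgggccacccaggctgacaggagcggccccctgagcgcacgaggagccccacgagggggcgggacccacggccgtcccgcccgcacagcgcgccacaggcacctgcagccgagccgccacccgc
Oxct1: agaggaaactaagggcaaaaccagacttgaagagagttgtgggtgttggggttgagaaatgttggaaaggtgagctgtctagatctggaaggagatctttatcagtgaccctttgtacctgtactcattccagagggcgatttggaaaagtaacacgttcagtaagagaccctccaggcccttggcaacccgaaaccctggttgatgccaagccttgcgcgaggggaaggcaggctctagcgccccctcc
GENCODE M21 places the start of each of these genes upstream of the RefSeq start. The hexamer began 94 bases before the start in Cpt1a and 220 bases before it in Slc27a2, and these letters were not in the other 3 windows. Over windows of 300 bases (250 before the start and 50 after it), searched on both strands, it was in 6 of the 28 genes that the RefSeq table held, namely Cpt1a, Acadm, Acadvl, Slc27a2, Creb3l3 and Ucp3, and in 18.1% of the 27025 genes of the whole table. A direct repeat of AGGNCA with a single base between the copies (N for any base) was in 0 of the 28 and in 0.45% of all genes. Cpt1b, Acaa2, Decr1, Hsd17b4, Cyp4a10, Cyp4a14, Acat1, Angptl4 and Vnn1 had no entry.

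In sham mice the liver had the highest level of 18 of the 37 genes, and 10 of them were free of overlap with a next tissue. These 10 include Cyp4a14, which was listed in the liver alone and had no next tissue to overlap with. The tables were normalized separately, so these orders are a description. Acaa2, the last enzyme of the mitochondrial spiral, had 922 ± 208 CPM (SD, n = 4) in the sham liver against 249 ± 50.7 CPM (SD, n = 4) in the duodenum, the next tissue, and 49.3 ± 27.6 CPM (SD, n = 5) in the ileum, the lowest. Bdh1, which interconverts acetoacetate and β-hydroxybutyrate, had 254 ± 70.4 CPM (SD, n = 4) in the liver and only 0.875 ± 0.695 CPM (SD, n = 4) in WAT. Oxct1, in contrast, was lowest in the liver, with 5.38 ± 1.43 CPM (SD, n = 4), and highest in the duodenum and muscle, with 331 ± 129 CPM and 307 ± 19.5 CPM (SD, n = 4 each), which overlapped.

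The duodenum had the highest sham level of 11 genes, among them Cpt2, Slc25a20, Acadl, Hadha and Ehhadh, and none of the 11 was free of overlap with the next tissue. Acadl, the long-chain acyl-CoA dehydrogenase, had sham means that ran along the intestine from 580 ± 125 CPM (SD, n = 4) in the duodenum to 269 ± 203 CPM (SD, n = 4) in the jejunum and 105 ± 27.0 CPM (SD, n = 5) in the ileum, but the jejunum overlapped with both the duodenum and the ileum. Muscle was highest in Pdk4, Cpt1b and Ucp3, and WAT in Acsl1, with 1609 ± 396 CPM (SD, n = 4), and in Angptl4, an inhibitor of lipoprotein lipase, with 477 ± 281 CPM (SD, n = 4). Vnn1, the pantetheinase, was highest in the ileum, with 567 ± 71.9 CPM (SD, n = 5), and its libraries did not overlap with those of the jejunum, the next tissue by mean, but 1 sham library of the duodenum, with 545.7 CPM, lay within their range.

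**Figure D1:**
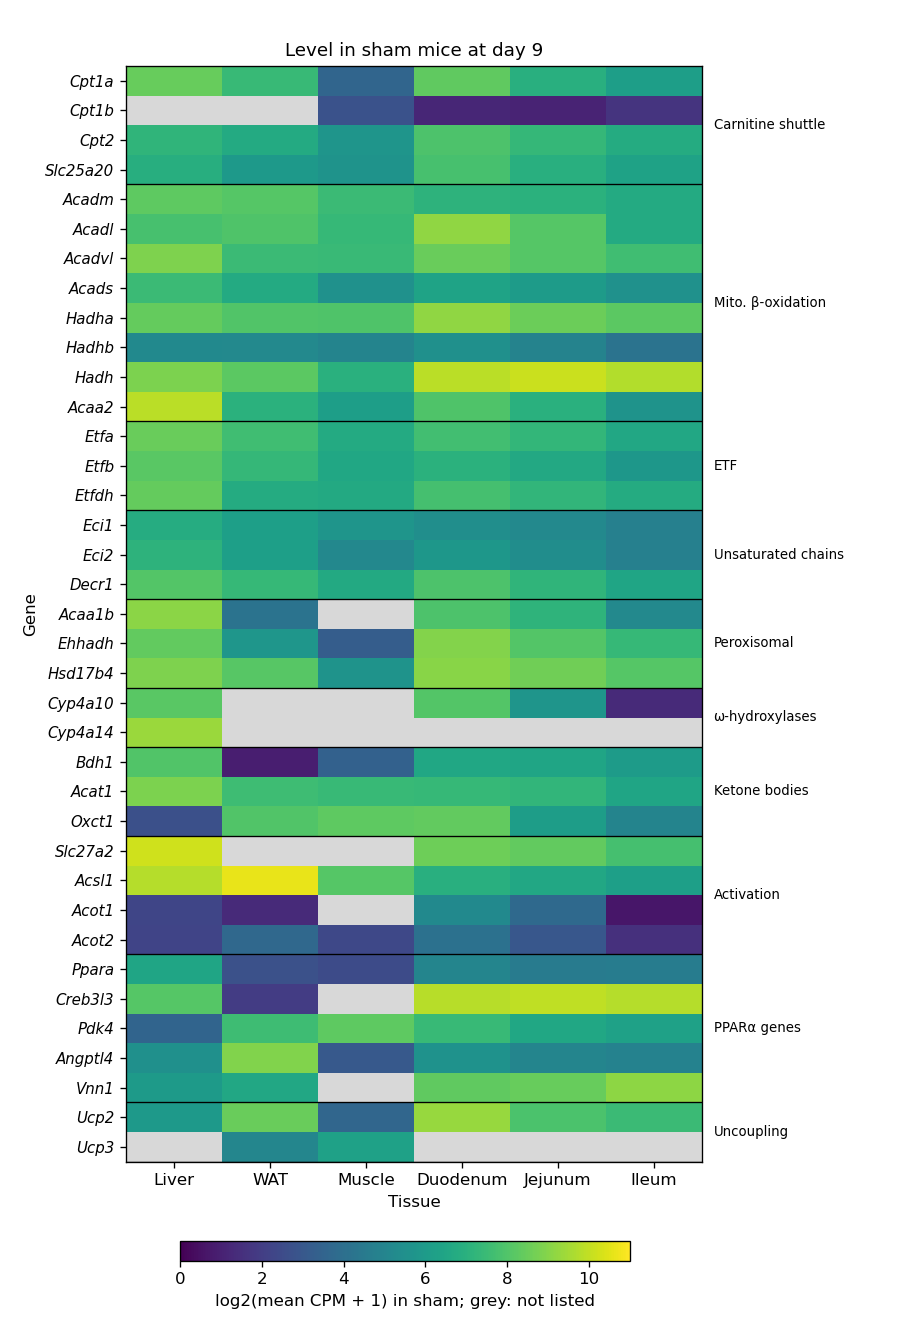
Mean level in sham mice, as log2(mean CPM + 1), for each of the 37 genes (lines, grouped by role) in each tissue (columns), with grey where a gene was not listed. The liver column is brightest for 18 genes, among them Acaa2 and Slc27a2, while Oxct1 is darkest there.

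RYGB against sham gave a different picture in each tissue. Of the members tested, 9 were called higher and 0 lower in the ileum, 1 higher and 4 lower in the jejunum, 4 higher and 0 lower in the liver, and 1 higher and 2 lower in WAT. No member was called in muscle or in the duodenum. The median log2 fold change of the members was 0.44 in the ileum, -0.41 in the jejunum, 0.69 in muscle, -0.50 in the duodenum, 0.28 in the liver and -0.09 in WAT. Over all genes tested the medians were -0.09, -0.04, 0.05, 0.12, 0.13 and 0.11 in the same order. No gene was called in the same direction in more than 2 tissues. Cpt1a was higher in the liver and the ileum, and Bdh1 was higher in the liver and WAT, while Oxct1 was higher in the liver and the jejunum.

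**Figure D2:**
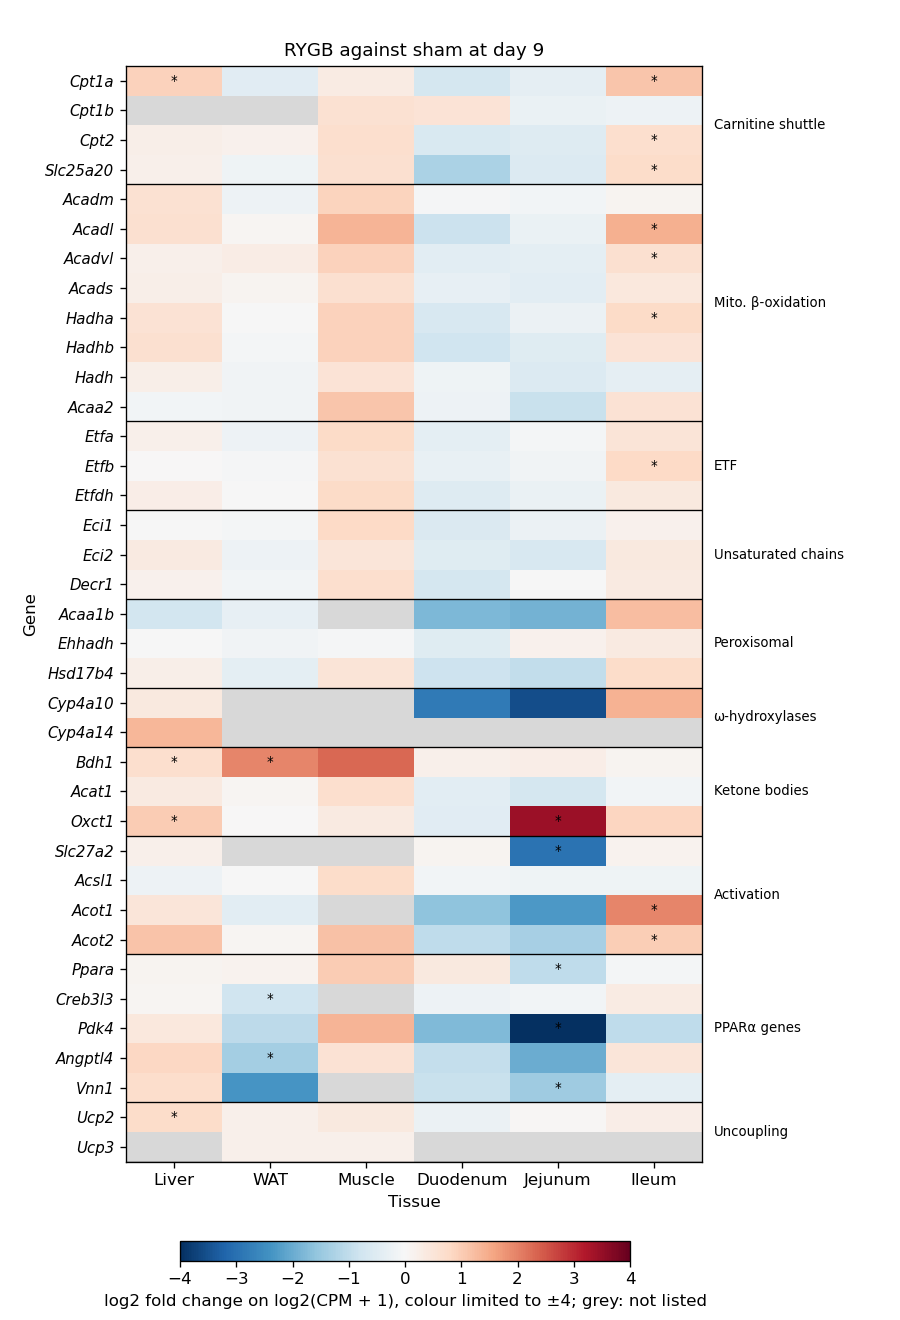
Log2 fold change of RYGB against sham on log2(CPM + 1) for the 37 genes (lines, grouped by role) in the 6 tissues (columns), in red where the level was above sham and blue where it was below, grey for not listed and an asterisk for called genes. The muscle column is red for 29 of 30 genes and the duodenum column blue for 31 of 35, both without an asterisk, and the ileum column carries 9 asterisks.

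In the ileum some genes of the mitochondrial pathway were higher after RYGB, among them Cpt1a, Slc25a20 and Acadl, and others were not called. The 9 genes called higher were 25.7% of the 35 tested, against 1.64% of the 10735 genes of the tissue, and none was called lower, against 4.42% of all genes. They were 3 of 4 genes of the carnitine shuttle, 3 of 8 mitochondrial enzymes, 1 of 3 electron transfer genes and both acyl-CoA thioesterases. In 4 of them (Acadl, Cpt1a, Slc25a20 and Hadha) the RYGB libraries lay above all sham libraries without overlap, as did 2.42% of all genes. Of the 9, Etfb, Acot1 and Acot2 were among the genes whose values are uncertain because of shared stretches of sequence.

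Cpt1a (chr19:3322334-3385733 in GRCm38), the rate-setting step of the entry into mitochondria, had 125.1, 214.4, 120.3, 136.9 and 175.5 CPM in RYGB replicates 1 to 5 and 58.7, 66.3, 60.8, 64.4 and 104.4 CPM in sham replicates 1 to 5. All RYGB libraries were above all sham libraries, with a log2 fold change of 1.11 (standard error 0.19, 2.16-fold, adjusted p = 0.00962 with limma). Slc25a20 (chr9:108662088-108684641), which carries acylcarnitines across the inner membrane, had 136.2, 159.2, 127.0, 108.3 and 134.7 CPM after RYGB and 76.0, 76.4, 74.5, 83.5 and 84.8 CPM after sham surgery. The sham libraries were tightly grouped below all RYGB libraries, and the log2 fold change was 0.74 (standard error 0.11, adjusted p = 0.00631). Cpt2, which returns the chain from carnitine to coenzyme A, had 149.5, 189.1, 135.8, 187.2 and 207.6 CPM in the RYGB group against 108.7, 98.4, 107.1, 84.9 and 139.5 CPM, where the lowest RYGB library was below the highest sham library (log2 fold change 0.69, standard error 0.15, adjusted p = 0.0215).

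Among the enzymes of the spiral, Acadl (chr1:66830839-66863277) changed most. It had 187.3, 353.5, 211.9, 324.4 and 326.0 CPM after RYGB and 59.4, 124.0, 105.4, 112.3 and 125.3 CPM in sham, a log2 fold change of 1.41 (standard error 0.23, 2.65-fold, adjusted p = 0.00878) without overlap. Hadha (chr5:30118304-30155162) had 428.9, 595.5, 388.8, 534.0 and 606.8 CPM against 237.2, 322.6, 314.4, 234.7 and 384.9 CPM in sham, where the highest sham library lay just under the lowest RYGB library (log2 fold change 0.78, standard error 0.17, adjusted p = 0.0215). Etfb, which encodes the β subunit of the flavoprotein that takes electrons from the dehydrogenases, had 78.6, 107.6, 65.4, 105.2 and 133.4 CPM after RYGB and 54.0, 60.6, 43.3, 49.2 and 68.8 CPM in sham (log2 fold change 0.79, standard error 0.19, adjusted p = 0.0286). Its RYGB replicate 3 lay below sham replicate 5, so the groups overlapped. Acadvl, the very-long-chain dehydrogenase, was 1.58-fold higher (adjusted p = 0.0485).

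The thioesterases, which release fatty acids from coenzyme A, were low in the ileum but higher after RYGB. Acot1, the cytosolic form, had 3.1, 6.9, 1.3, 7.5 and 7.8 CPM after RYGB and 0.2, 0.5, 0.1, 0.0 and 2.2 CPM in sham, a log2 fold change of 1.96 (standard error 0.41, adjusted p = 0.0172). Acot2, the mitochondrial form, had 4.7, 5.5, 3.1, 3.8 and 5.1 CPM against 1.4, 2.8, 0.8, 1.1 and 3.4 CPM (log2 fold change 0.98, standard error 0.25, adjusted p = 0.0380). In both genes the highest sham library was above the lowest RYGB library, and the levels are close to the rounding of 0.1 CPM in sham for Acot1.

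The other members of the ileum were not called. Peroxisomal Acaa1b had a log2 fold change of 1.24 (adjusted p = 0.0658) and Hsd17b4 of 0.74 (adjusted p = 0.0907), Hadhb of 0.54 (adjusted p = 0.0730) and Etfa of 0.53 (adjusted p = 0.0933). Pdk4 had -1.03 (adjusted p = 0.0972), from 76.7 ± 37.5 CPM (SD, n = 5) in sham to 36.8 ± 16.03 CPM (SD, n = 5). The medium-chain dehydrogenase gene Acadm had 114 ± 29.1 CPM (SD, n = 5) in RYGB and 105 ± 19.3 CPM (SD, n = 5) in sham, and Ppara itself had 21.8 ± 6.65 and 23.3 ± 7.92 CPM (SD, n = 5 each). Oxct1 had 67.2 ± 51.5 CPM (SD, n = 5) in RYGB and 30.4 ± 7.93 CPM (SD, n = 5) in sham (adjusted p = 0.210).

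A list of 85 other genes of the pathway, written beside the members, had 66 genes tested in the ileum, of which 5 were called higher and 1 lower. These were 7.58% and 1.52%, against 1.64% and 4.42% of all genes. Acacb, which makes the malonyl-CoA that inhibits CPT1, rose (log2 fold change 2.12, adjusted p = 0.00166), as did Prkaa2, a catalytic subunit of AMPK (1.12, adjusted p = 0.00607), Cidec, a lipid droplet protein (0.88, adjusted p = 0.0409), and Fabp1, the fatty acid binding protein of liver and proximal gut (1.25, adjusted p = 0.0391). Cd36, a fatty acid transporter of the cell surface, fell from between 219.9 and 415.3 CPM to between 27.4 and 121.7 CPM (log2 fold change -2.44, standard error 0.33, adjusted p = 0.00451).

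All RYGB libraries of the ileum were run in lane 1 and all sham libraries in lanes 2 and 3, and the effects of lane and surgery on the ileum cannot be told apart. Genes marking the proximal small intestine (2 of 3 listed) summed to between 3902 and 8645 CPM in RYGB and between 1312 and 4140 CPM in sham, mostly from Fabp1, while the other listed gene, Gata4, had 105.0 to 183.2 CPM in RYGB and 122.4 to 154.5 CPM in sham. T cell genes (4 of 6 listed, all called lower) summed to between 4.1 and 16.4 CPM in RYGB and between 22.7 and 59.2 CPM in sham. The ileal genes summed to 47.1, 61.6, 101.1, 1.7 and 36.1 CPM in RYGB replicates 1 to 5 and to between 0.2 and 25.4 CPM in sham. Of these, Slc10a2 was called higher (log2 fold change 2.30, adjusted p = 0.0474 with limma) and Fabp6 was not called. Within RYGB the sum of the proximal genes was lowest in replicate 3 and highest in replicate 4. The part of these 3 lists in the result was not tested. RYGB replicate 3 stood apart from its group. Its median over the members was -0.20 relative to the sham mean on the log2 scale, below 4 of the 5 sham libraries, against 0.21 to 0.83 in the other RYGB libraries, and it was the lowest RYGB library in 26 of 35 members. Without it 13 members were called, all higher, and the median log2 fold change of the members was 0.62. The number called was 4 without RYGB replicate 2 and 5 without sham replicate 1 or 3, and Cpt1a, Acadl, Slc25a20 and Acot1 were called whichever of the 10 libraries was left out. With the libraries scaled by their median ratio, 13 members were called, all higher, and over all genes 329 were called higher and 372 lower in place of 176 and 474.

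The jejunum had few called members, but the largest fold changes of any member in the 6 tissues. Pdk4, Slc27a2, Vnn1 and Ppara were lower after RYGB and Oxct1 was higher. The 4 genes called lower were 11.4% of the 35 tested against 5.13% of the 10854 genes of the tissue, and the gene called higher was 2.86% against 4.62%, shares that are near the background for the higher direction. Lower values without overlap were found in 9 of 35 members (25.7%) and in 12.5% of all genes. The medians of the members, relative to the sham mean on the log2 scale, were -0.13, -0.59 and -0.65 in RYGB replicates 1 to 3. In sham replicates 1 to 4 they were -0.43, 0.43, -0.28 and 0.20, so the groups overlapped.

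Oxct1 (chr15:4026383-4155344), through which tissues oxidize ketone bodies, had 593.3, 693.3 and 634.4 CPM in RYGB replicates 1 to 3 and 47.2, 142.3, 45.6 and 37.6 CPM in sham replicates 1 to 4. The RYGB libraries were close together and far above all sham libraries, of which replicate 2 was the highest (log2 fold change 3.43, standard error 0.39, 10.8-fold, adjusted p = 0.00114). Bdh1, the enzyme before it in the use of β-hydroxybutyrate, had 104 ± 11.1 CPM (SD, n = 3) in RYGB and 87.8 ± 13.1 CPM (SD, n = 4) in sham, and Acat1, which splits acetoacetyl-CoA, had 88.8 ± 7.003 and 151 ± 40.1 CPM (log2 fold change -0.71, adjusted p = 0.0866). Of the 3 ketone body enzymes only Oxct1 was called in the jejunum.

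Pdk4 (chr6:5483351-5496309), a gene that fasting and PPARα raise in many tissues, fell to 6.0, 1.4 and 2.5 CPM after RYGB from 126.4, 86.9, 109.7 and 50.6 CPM in sham. The groups were far apart, with a log2 fold change of -4.52 (standard error 0.39, 23.0-fold lower, adjusted p = 0.000414). Slc27a2 (chr2:126552407-126588243) had 45.5, 40.6 and 35.4 CPM after RYGB and 225.1, 336.8, 330.2 and 427.5 CPM in sham, again without overlap (log2 fold change -2.97, standard error 0.22, 7.81-fold lower, adjusted p = 0.000262). Vnn1, a PPARα target on the enterocyte surface, had 145.1, 102.3 and 146.8 CPM against 359.8, 271.4, 395.3 and 382.4 CPM (log2 fold change -1.42, standard error 0.20, adjusted p = 0.00291).

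Ppara, the receptor gene, had 8.6, 10.4 and 12.3 CPM after RYGB and 29.6, 25.2, 22.2 and 14.2 CPM in sham (log2 fold change -1.03, standard error 0.26, adjusted p = 0.0359). The sham library closest to the RYGB group was replicate 4. This call was lost without RYGB replicate 1 or 2, without sham replicate 1, 2 or 3, and with lane as a covariate, with adjusted p between 0.0759 and 0.103 in these fits. RYGB replicate 2 alone was run in another lane, so the fit with lane largely repeats leaving it out. The other 4 members were called whichever of the 7 libraries was left out.

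**Figure D3:**
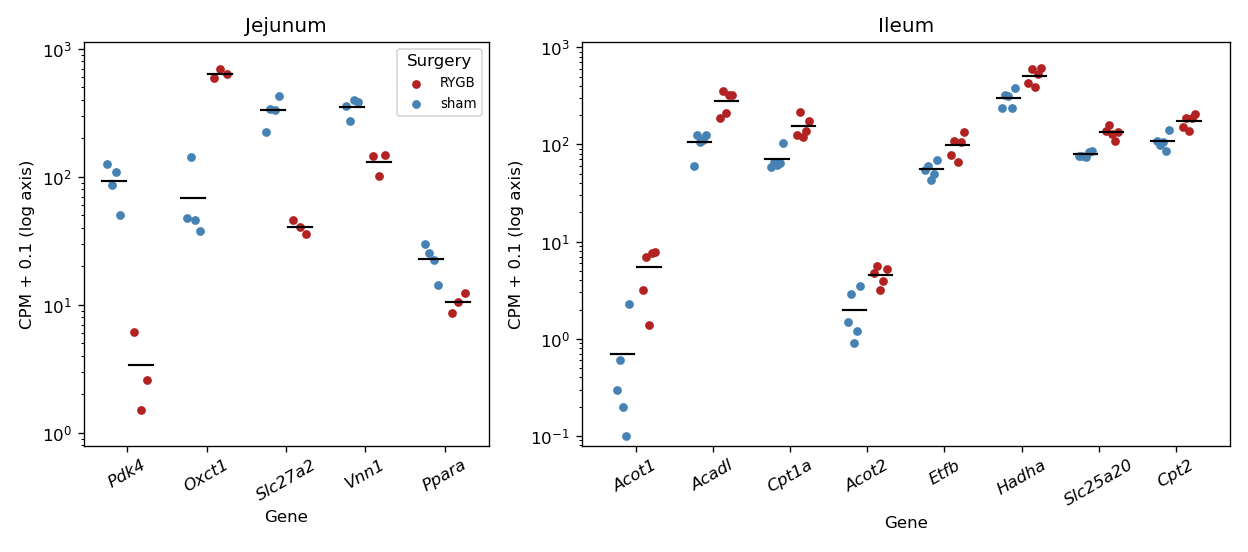
CPM + 0.1 on a log axis for the called genes of the jejunum (left) and for 8 of the 9 called genes of the ileum (right), with a point for each library, red for RYGB and blue for sham, and a line at the group mean. In the jejunum the groups are apart for all 5 genes, with Pdk4 at most 6.0 CPM after RYGB, and in the ileum Acadl, Cpt1a, Hadha and Slc25a20 are apart.

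Further genes of the jejunum had low values after RYGB without being called, with a wide spread in the sham libraries of Cyp4a10, Acot1 and Acaa1b and in the RYGB libraries of Angptl4. Cyp4a10 had 0.4 to 0.5 CPM after RYGB and 3.0 to 183.4 CPM in sham (log2 fold change -3.54, standard error 1.05, adjusted p = 0.0627). Acot1 had 0.2 to 1.2 CPM against 1.7 to 32.8 CPM (adjusted p = 0.0966), Angptl4 0.8 to 16.8 CPM against 25.2 to 36.8 CPM (adjusted p = 0.0962), and Acaa1b 21.3 to 48.7 CPM against 52.5 to 289.4 CPM (adjusted p = 0.0625). In these 4 genes the groups did not overlap. The enzymes of the mitochondrial spiral had smaller differences, with log2 fold changes between -0.90 (Acaa2) and -0.11 (Acadm) and a lowest adjusted p of 0.111, for Hadh.

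Of 66 other pathway genes tested in the jejunum, 5 were called higher and 8 lower. These were 7.58% and 12.1%, against 4.62% and 5.13% of all genes. Cd36 fell from between 298.2 and 426.9 CPM to between 14.0 and 55.3 CPM (log2 fold change -3.85, adjusted p = 0.000693), and peroxisomal Acaa1a and Acot4 fell by 1.04 and 1.19 on the log2 scale (adjusted p = 0.0145 and 0.0308). Crat, carnitine acetyltransferase, fell by 0.80 and Acad11 by 0.73 on the log2 scale. Acsm5, a medium-chain acyl-CoA synthetase, fell by 1.13. Aacs, which activates acetoacetate for lipid synthesis, rose (log2 fold change 2.26, adjusted p = 0.00169), as did Prkaa2 (1.76), Acsl4 (1.49), Pccb (1.24) and Lpin1 (1.24). T cell genes (5 of 6 listed, all called lower) summed to between 6.6 and 14.9 CPM in RYGB and between 35.4 and 58.0 CPM in sham, and their part in these results was not tested.

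In gastrocnemius muscle the members were shifted together toward higher values after RYGB, but none passed the test. The lowest adjusted p was 0.102, for Acadl. Of the 30 tested, 29 had a higher mean on the log2 scale, 24 (80.0%) an unadjusted p under 0.05 in the higher direction, against 10% of the 11966 genes of the tissue, and 18 (60.0%) lay above sham without overlap, against 4.77% of all genes. Calls over all genes were 0% in the higher and 0% in the lower direction. Replicates 1 and 2 of both groups were run in lane 2. Sham replicates 3 and 4 were run in lane 3 and RYGB replicates 3 and 4 in lane 4. In those replicates the effects of lane and surgery on muscle cannot be told apart. A fit with lane, which compares the groups within replicates 1 and 2 alone, called 0 members.

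Of the mitochondrial enzymes, 7 of 8 were free of overlap, and their median log2 fold change was 0.93. Acadl had 355.9, 384.9, 653.4 and 314.4 CPM in RYGB replicates 1 to 4 and 166.1, 131.7, 220.9 and 130.1 CPM in sham replicates 1 to 4 (log2 fold change 1.37, standard error 0.24, adjusted p = 0.102). RYGB replicate 3 was the highest library and sham replicate 3 the highest of its group, and the groups did not overlap. Acaa2 had 159 ± 61.2 CPM (SD, n = 4) against 70.5 ± 14.0 CPM (SD, n = 4), Acadvl 340 ± 96.2 against 175 ± 30.5 CPM, Hadha 494 ± 185 against 250 ± 27.2 CPM and Acadm 345 ± 108 against 182 ± 24.7 CPM (adjusted p = 0.112, 0.112, 0.116 and 0.112).

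The electron transfer genes Etfa, Etfb and Etfdh and the isomerase and reductase genes for unsaturated chains Eci1, Eci2 and Decr1 had log2 fold changes between 0.50 and 0.81. In the carnitine shuttle, Slc25a20 and Cpt2 lay above sham without overlap, at 0.64 and 0.68, while Cpt1a and Cpt1b overlapped, at 0.33 and 0.61. Ehhadh, a peroxisomal enzyme, was the exception with -0.04.

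Of the ketone body enzymes of muscle, Bdh1 (chr16:31422280-31458901) had the largest difference among all members. It had 44.9, 41.0, 88.9 and 25.8 CPM after RYGB and 15.6, 4.9, 14.0 and 4.6 CPM in sham, all RYGB libraries above all sham libraries (log2 fold change 2.29, standard error 0.44, 4.87-fold, adjusted p = 0.110). Acat1 had a log2 fold change of 0.68 without overlap (adjusted p = 0.121), and Oxct1, already abundant in muscle, 0.36 with overlap (adjusted p = 0.489). Pdk4 had 327.3, 539.6, 1906.9 and 1106.4 CPM after RYGB and 382.5, 271.5, 250.6 and 326.0 CPM in sham (log2 fold change 1.36, standard error 0.46, adjusted p = 0.220). Its RYGB replicate 1 lay within the sham group, and Ucp3, the uncoupling protein of muscle, overlapped too, with 99.0 ± 52.8 and 78.5 ± 15.8 CPM (SD, n = 4 each). Both genes were highest in RYGB replicates 3 and 4, the libraries of lane 4.

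**Figure D4:**
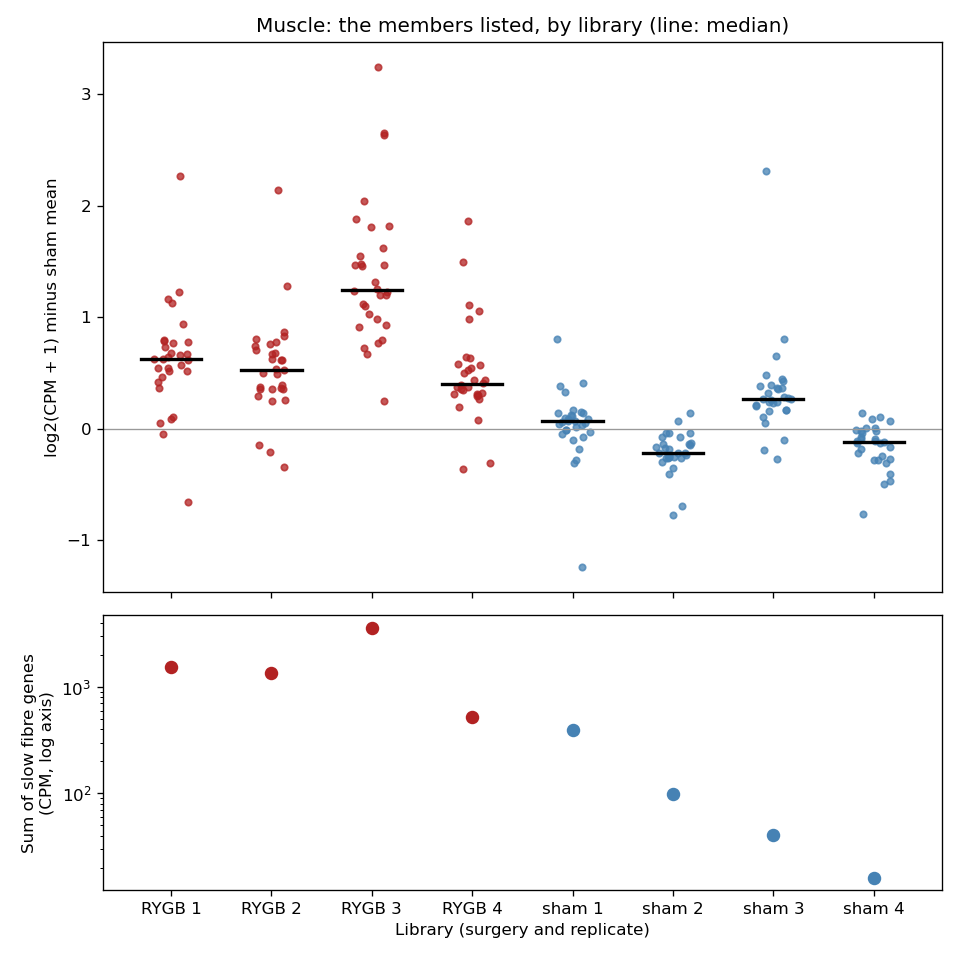
Top, log2(CPM + 1) minus the sham mean for the 30 genes listed in muscle, with a point for each gene and a line at the median in each library, red for RYGB and blue for sham. Bottom, the summed CPM of 5 slow fibre genes in the same libraries on a log axis, from 16.2 CPM in sham 4 to 3579.6 CPM in RYGB 3, the library with the highest median above.

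Genes of slow muscle fibres differed between the groups as well. The 5 slow fibre genes (Myh7, Tnni1, Myl2, Tnnc1 and Tnnt1) summed to 1538.3, 1360.9, 3579.6 and 518.2 CPM in RYGB replicates 1 to 4 and to 390.3, 98.3, 41.1 and 16.2 CPM in sham replicates 1 to 4, without overlap. None of the 5 was called (lowest adjusted p = 0.112). Skeletal muscle genes (6 of 6 listed, 0 called) summed to 105081 to 139974 CPM in RYGB and 144201 to 177704 CPM in sham. These sums were lower after RYGB without overlap. The medians of the members, relative to the sham mean on the log2 scale, were 0.62, 0.53, 1.24 and 0.40 in RYGB replicates 1 to 4, the order of the slow fibre sums. In sham replicates 1 to 4 they were 0.07, -0.22, 0.27 and -0.12, which is not their order. Slow, oxidative fibres are known to be rich in these enzymes, and the part of fibre type in the shift was not tested. Adipocyte genes summed to 1101.1 CPM in sham replicate 3 and to between 144.7 and 474.0 CPM in the other 7 libraries. Without RYGB replicate 3 the median log2 fold change of the members was 0.52 and 0 members were called. Without RYGB replicate 4 it was 0.79 and 11 members were called higher, and without sham replicate 3 Acadl alone was called. Of 69 other pathway genes tested, 0 were called and 24 had an unadjusted p under 0.05 in either direction. Over all genes 1746 of 11966 had such a p.

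In the duodenum, the segment that RYGB excludes from food, the members were shifted toward lower values without a call. The lowest adjusted p was 0.0933, and 31 of 35 members had a negative log2 fold change. An unadjusted p under 0.05 was found in the lower direction in 17 members (48.6%), against 3.8% of the 10850 genes of the tissue, and in the higher direction in 1, Cpt1b. In 12 members (34.3%) the RYGB libraries lay below all sham libraries, against 2.93% of all genes. Over all genes 0% were called higher and 0.00922% lower.

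Cyp4a10, which hydroxylates the omega end of fatty acids, had 34.3, 39.3 and 26.5 CPM in RYGB replicates 1 to 3 and 449.8, 239.2, 265.2 and 114.5 CPM in sham replicates 1 to 4. The groups did not overlap, and sham replicate 4 was the closest to RYGB (log2 fold change -2.82, standard error 0.40, 7.08-fold lower, adjusted p = 0.0933). Pdk4 had 38.7, 43.3 and 61.6 CPM against 235.3, 114.6, 129.6 and 191.4 CPM, also without overlap (log2 fold change -1.76, standard error 0.28, adjusted p = 0.0933). Acaa1b, a thiolase of the peroxisome, had 131.7, 53.4 and 39.1 CPM against 289.4, 323.0, 245.4 and 121.9 CPM (log2 fold change -1.80, standard error 0.45, adjusted p = 0.144). Here sham replicate 4 fell among the RYGB libraries.

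Slc25a20 had the largest difference of the carnitine shuttle, with 85.0 ± 16.9 CPM (SD, n = 3) after RYGB and 219 ± 105 CPM (SD, n = 4) in sham (log2 fold change -1.25, adjusted p = 0.150). Acadl had 315 ± 17.8 against 580 ± 125 CPM, Hsd17b4, the multifunctional peroxisomal enzyme, 300 ± 48.0 against 535 ± 82.7 CPM, and Hadhb 24.4 ± 2.48 against 44.3 ± 11.7 CPM (adjusted p = 0.142, 0.134 and 0.146). In these 4 genes and in Cpt2, Hadha, Hadh, Eci2, Decr1 and Acat1 the RYGB libraries were below all sham libraries. The medium-chain gene Acadm had 135 ± 6.65 and 139 ± 16.1 CPM, and Slc27a2, which fell in the jejunum, had 392 ± 88.0 and 382 ± 157 CPM (SD, n = 3 and 4). Bdh1 was the only member whose RYGB libraries lay above all sham libraries, with 104.4 to 112.3 CPM against 86.8 to 98.4 CPM (log2 fold change 0.20, adjusted p = 0.368).

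Sham replicate 4 was the lowest sham library in 25 of the 35 members, and its median relative to the sham mean was -0.38 on the log2 scale, against -0.47, -0.53 and -0.52 in the 3 RYGB libraries and 0.08 to 0.29 in the other sham libraries. Without it 14 members were called lower, with Pdk4 at an adjusted p of 0.0225 and Cyp4a10 at 0.00637, and 0 were when any other library was left out in its place. T cell genes (5 of 6 listed) summed to between 38.8 and 89.2 CPM in RYGB and between 11.8 and 45.0 CPM in sham, where the highest was replicate 4. Genes of the proximal small intestine (2 of 3 listed) summed to between 4142 and 5485 CPM in RYGB and between 5428 and 13299 CPM in sham, where the lowest was replicate 4. The only pancreatic acinar gene listed, Cela1, had 5.9, 11.7 and 517.5 CPM in RYGB and 1979, 4817, 9.8 and 7.1 CPM in sham. The part of these in the result was not tested. Of 65 other pathway genes tested 0 were called, and 21 had an unadjusted p under 0.05 in either direction. Over all genes 2040 of 10850 had such a p.

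In the liver, the organ that makes ketone bodies, 4 members were called higher and 0 lower. These were Cpt1a, Bdh1, Oxct1 and Ucp2, a mitochondrial carrier of the inner membrane, and all 4 were free of overlap. They were 11.4% of the 35 tested, against 5.79% of the 11807 genes called higher and 1.29% called lower, and 11.4% of the members lay above sham without overlap against 13.4% of all genes. The median log2 fold change of 0.28 compares with 0.13 over all genes.

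Cpt1a had 502.2, 635.9, 730.7 and 783.3 CPM in RYGB replicates 1 to 4 and 281.8, 370.5, 337.0 and 407.9 CPM in sham replicates 1 to 4 (log2 fold change 0.92, standard error 0.17, 1.89-fold, adjusted p = 0.0117). Bdh1 had 377.0, 370.5, 452.8 and 398.1 CPM against 186.9, 240.6, 353.4 and 236.5 CPM, and sham replicate 3 lay close under the RYGB libraries (log2 fold change 0.68, standard error 0.18, adjusted p = 0.0381). Oxct1, which hepatocytes are known to lack, was low with 9.6, 16.2, 14.5 and 7.7 CPM against 3.3, 6.5, 5.6 and 6.1 CPM (log2 fold change 1.01, standard error 0.24, adjusted p = 0.0311). Ucp2 (chr7:100493337-100502020), which is abundant in macrophages, had 78.3, 127.9, 108.1 and 96.3 CPM after RYGB and 47.3, 71.8, 72.9 and 53.9 CPM in sham (log2 fold change 0.73, standard error 0.18, adjusted p = 0.0323). In all 4 genes every RYGB library was above every sham library.

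Genes of immune cells were also at higher levels in some of the same livers. Macrophage genes (6 of 7 listed, 1 called higher) summed to 389.9, 848.5, 488.8 and 435.6 CPM in RYGB replicates 1 to 4 and to between 242.8 and 408.7 CPM in sham. Neutrophil genes (4 of 5 listed, 3 called higher) summed to 28.8, 447.2, 62.5 and 28.8 CPM in RYGB and to between 7.2 and 14.2 CPM in sham. RYGB replicate 2, the highest in both lists, was also the highest library for Ucp2 and Oxct1. Their part in the higher Ucp2 and Oxct1 was not tested.

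The enzymes of the mitochondrial spiral in the liver had log2 fold changes of 0.57 to 0.65 for Acadl, Hadhb, Acadm and Hadha (adjusted p = 0.0694, 0.0789, 0.0891 and 0.0696) and nearer 0 for the rest, down to -0.10 for Acaa2. Sham replicate 3 had the highest median of any liver library, 0.47 above the sham mean on the log2 scale, and without it 10 members were called, these 4 among them. Sham replicate 1 had the lowest median, -0.40, and was the lowest of all 8 libraries in 26 of the 35 members. The median log2 fold change of the members was 0.42 without sham replicate 3 and 0.17 without sham replicate 1, in place of 0.28. Without RYGB replicate 2 or 3 or sham replicate 1 or 4 only Cpt1a was called, and it was called whichever of the 8 libraries was left out. With lane as a covariate 10 members were called higher, and with the libraries scaled by their median ratio only Cpt1a and Oxct1 were, with Ucp2 and Bdh1 still higher (adjusted p = 0.0467 with less than 1.5-fold for Ucp2 and 0.0776 for Bdh1). The omega-hydroxylase genes Cyp4a10 and Cyp4a14 were spread widely in sham liver, from 74.2 to 646.4 and from 122.4 to 1729.1 CPM, and were not called. Acaa1b had the lowest fold change, from 536 ± 238 CPM (SD, n = 4) in sham to 304 ± 42.7 CPM (SD, n = 4), with an adjusted p of 0.109.

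Of 82 other pathway genes tested in the liver 10 were called higher and 5 lower. These were 12.2% and 6.10%, against 5.79% and 1.29% of all genes. Fgf21, a fasting hormone of the liver under PPARα, had 4.8 to 36.9 CPM after RYGB and 0.6 to 1.2 CPM in sham (log2 fold change 2.68, standard error 0.46, adjusted p = 0.00939). Abcd2, which carries very long chains into peroxisomes, had 66.7 to 80.9 CPM against 8.1 to 35.3 CPM (log2 fold change 2.07, adjusted p = 0.00702), and peroxisomal Acot4 and Crot rose by 1.13 and 0.86 on that scale. Crat (1.12, adjusted p = 0.00169), the carnitine transporter gene Slc22a5 (0.72), the monocarboxylate transporter gene Slc16a7 (1.21), Lpl (1.56), the coactivator gene Ppargc1a (0.72) and Nrip1 (0.59) rose as well. Cyp4a12a fell from between 64.3 and 157.4 CPM to between 1.7 and 32.2 CPM (log2 fold change -4.04, adjusted p = 0.00646), and Acacb (-1.22), Aacs (-1.18), Bdh2 (-0.99) and Acsl5 (-0.65) fell too.

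In WAT the enzymes of fatty acid oxidation were not called in either direction, and the 3 called members were Bdh1, higher, and Angptl4 and Creb3l3, lower. Called members made up 3.03% higher against 14.9% of the 13379 genes and 6.06% lower against 9.23%, and 3.03% of the members lay below sham without overlap against 15% of all genes. The 8 mitochondrial enzymes had log2 fold changes between -0.20 and 0.30 with a lowest adjusted p of 0.438, and the 3 electron transfer genes between -0.19 and -0.01.

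Bdh1 had 3.5, 4.4, 5.7 and 12.8 CPM in RYGB replicates 1 to 4 and 0.4, 0.5, 1.9 and 0.7 CPM in sham replicates 1 to 4, without overlap (log2 fold change 1.94, standard error 0.37, adjusted p = 0.00627). Creb3l3, a transcription factor gene of liver and intestine, was low, with 1.3, 1.5, 1.3 and 1.0 CPM against 2.4, 2.7, 3.4 and 3.2 CPM (log2 fold change -0.78, standard error 0.15, adjusted p = 0.00629). Angptl4 (chr17:33773750-33781830) had 129.8, 117.1, 196.6 and 185.5 CPM after RYGB and 143.9, 370.9, 791.5 and 599.8 CPM in sham (log2 fold change -1.37, standard error 0.47, adjusted p = 0.0480). Sham replicate 1 lay within the RYGB group for Angptl4, and the call was lost when any one of the other 7 libraries was left out (adjusted p between 0.0574 and 0.115) and with lane as a covariate (adjusted p = 0.102). Vnn1 had 3.9 to 21.6 CPM after RYGB and 11.5 to 225.1 CPM in sham (adjusted p = 0.0539), and Pdk4 66.9 to 105.2 CPM against 58.8 to 332.0 CPM (adjusted p = 0.0964).

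**Figure D5:**
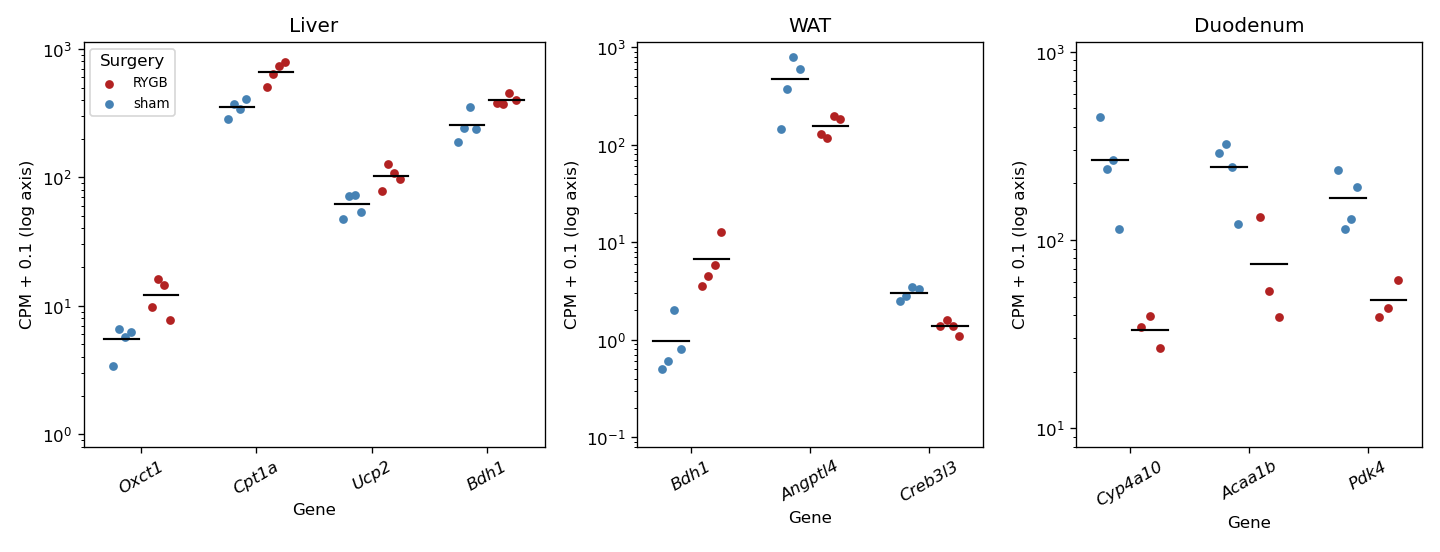
CPM + 0.1 on a log axis for the called genes of the liver (left) and WAT (middle) and for the 3 genes with the largest fold change in the duodenum (right), none of them called, with a point for each library, red for RYGB and blue for sham, and a line at the group mean. The groups are apart for the 4 liver genes, for Bdh1 and Creb3l3 in WAT and for Cyp4a10 and Pdk4 in the duodenum, and Angptl4 and Acaa1b overlap.

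The RYGB libraries of WAT carried genes of lymphocytes. B cell genes (6 of 6 listed, all called higher) summed to between 809.0 and 2091.1 CPM in RYGB and between 6.7 and 16.3 CPM in sham, and T cell genes (6 of 6, all called higher) to between 264.0 and 1016.3 CPM and between 9.1 and 17.4 CPM. Adipocyte genes summed to 16249, 14991, 11916 and 7541 CPM in RYGB replicates 1 to 4 and to between 15206 and 22076 CPM in sham. RYGB replicate 4, the highest in lymphocyte genes and the lowest in adipocyte genes, was the lowest of all 8 libraries in 25 of the 33 members and the highest in Bdh1. Keratinocyte genes (3 of 5 listed) summed to between 54.0 and 143.8 CPM in sham replicates 1 to 3 and to at most 3.6 CPM in the other libraries. The part of these cells in the result was not tested. Without RYGB replicate 4 the median log2 fold change of the members was 0.09 in place of -0.09, and Bdh1 and Creb3l3 were called whichever of the 8 libraries was left out. Of 73 other pathway genes tested, Slc16a6 (log2 fold change 1.21, adjusted p = 0.00776) and Acot8 (0.61, adjusted p = 0.0237) rose, and Plin4, a lipid droplet protein of adipocytes (-0.92, adjusted p = 0.0174), and Acsm5 (-0.77, adjusted p = 0.0125) fell. Of this list 2.74% were called higher and 2.74% lower, against 14.9% and 9.23% of all genes.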

How the data were processed

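RNA of 6 tissues was sequenced from stranded mRNA libraries. The authors deposited a table of CPM for each tissue, rounded to 0.1. The submitters' processing notes name HTSeq and GRCm38, and the aligner and versions are not given in the sources used here. The unit was settled from the column sums. A gene on more than 1 line was counted once (408 such lines in muscle, 379 in WAT, 359 in jejunum, 326 in ileum, 298 in duodenum, 1 in liver), and 12 liver lines lacking a value for a sham library were left out.

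Each tissue was fitted alone with limma 3.58.1 (trend) in R 4.3.3 on log2(CPM + 1), over the genes whose mean reached 1 CPM, with Benjamini-Hochberg adjustment over all genes of the tissue, and the method was tested on simulated data. CPM are no counts, so no count model was fitted, and without depth no intervals are given. Tissues were not compared by a test.

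The members and lists were chosen with earlier results of these data known. By the naming rule, called members, at most 8 a tissue by fold change, get the value of every library, or the 3 with the largest change where fewer than 3 were called, and at most 3 called genes of each other pathway list are named. Single marker genes named beside their lists were chosen after their values were seen. A gene of the pathway lists is not reported here by name. Alternatives were the pseudocount, the CPM minimum, median ratio scaling, lane, the replicate block, the call rule and each library left out. Positions are from GENCODE M21 (GRCm38). Tables and figures were made with Python 3.11.15, pandas 2.3.3, numpy 2.4.6 and matplotlib 3.10.9.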

Additional observations from a re-analysis of the deposited data

Results flagged for a closer look

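In 3 of the 44 groups of 4 or 5 libraries examined for the members given by library, a sham library stood apart from its group by the gap between it and its nearest neighbour relative to the range of the group, where chance alone gives about 2.2. Oxct1 in the jejunum had 142.3 CPM in sham replicate 2, and the next highest sham library had 47.2 CPM (gap 0.831 of the range). Acadl in the ileum had 59.4 CPM in sham replicate 1, below 105.4 CPM in the next library (0.768), and Cpt1a in the ileum had 104.4 CPM in sham replicate 5, above 66.3 CPM in the next (0.789). All 3 lay on the same side of the RYGB libraries as the rest of their group.

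For 9 genes the RYGB libraries were all above the sham group in muscle and all below it in the duodenum, and for 3 of these they were all above it in the ileum too. The tables were normalized separately, so these differences between tissues were not tested. The log2 fold change in muscle exceeded that in the duodenum by 2.22 for Acadl, 1.89 for Slc25a20, 1.73 for Hadhb, 1.55 for Hadha, 1.39 for Decr1, 1.36 for Hsd17b4, 1.28 for Cpt2, 1.10 for Acat1 and 0.98 for Eci2. That in the ileum exceeded it by 2.26 for Acadl, 1.99 for Slc25a20 and 1.41 for Hadha.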

How the results depend on the processing

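Depth is unknown, and values under about 1 CPM are limited by the rounding to 0.1 CPM. Of the changes of single named genes under all alternatives, 327 kept direction and side of the threshold, 45 lost the call, 10 gained it and 0 turned. Except where stated, the cause was not tested.

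The number of members called became 2 in the liver with median ratio scaling and 10 with lane as a covariate. With a minimum of 10 CPM, which leaves fewer genes, it became 1 in WAT and 6 in the ileum. When a library was left out it ranged from 1 to 10 in the liver, 2 to 6 in WAT, 0 to 11 in muscle, 0 to 14 in the duodenum, 4 to 8 in the jejunum and 4 to 13 in the ileum. The median log2 fold change of the members in WAT ranged from -0.22 to 0.094 and turned without RYGB replicate 4.

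Libraries of both groups carry the same replicate numbers, and the correlation of deviations of same-numbered libraries ran from -0.281 to 0.389, with every pair above 0.1 in 0 tissues. Correlations over so few libraries cannot settle whether same-numbered libraries shared more than the number. With a replicate block the number of members called was 9 in the liver (8 higher and 1 lower), 16 in muscle (all higher), 8 in the duodenum (all lower) and 8 in the jejunum, and over all genes it was 184 in muscle and 268 in the duodenum.

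Over all genes, 836 were called in the liver, 458 with a minimum of 10 CPM and 329 to 1204 without a library. The numbers were 1058, 664 and 462 to 1015 in the jejunum, with 469 with lane as a covariate, and 650, 333 and 312 to 766 in the ileum. WAT had 3231, with 4980 on the adjusted p alone and 2460 to 3765 without a library. Muscle had 0, with 3 at a minimum of 10 CPM, 2 after scaling and 0 to 210 without a library, and the duodenum 1, with 0 to 757. After scaling, the split of higher and lower genes went from 684 and 152 to 437 and 235 in the liver, from 1996 and 1235 to 1642 and 1668 in WAT, and from 176 and 474 to 329 and 372 in the ileum. Lane could not be fitted in the ileum, and the duodenum had a single lane. In the jejunum lane set only RYGB replicate 2 apart.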
